A study of Mus musculus with 12 samples.

Results

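The interferon-stimulated genes, the interferon regulatory factors (IRFs), the STAT transcription factors and the interferon receptors were examined in undifferentiated spermatogonia of control and surgically cryptorchid mouse testes. Genes were included by a rule on their symbols: every symbol made of Ifi, Ifit, Isg, Gbp, Stat or Irf and a digit, every symbol that starts with Ifitm, Ifnar, Ifngr, or Oas and a digit or the letter l, and *Mx1* and *Mx2*, leaving out *Irf3* and *Irf7*. Of the 21859 genes in the expression table, 76 matched, and 74 of them are described. They were 4 receptors, 6 STATs, 6 IRFs, 18 Ifi, 6 Ifit, 7 Ifitm, 11 Oas, 3 Isg and 10 Gbp genes and 3 genes for proteins that bind IRF2 and share only its name (*Irf2bp1*, *Irf2bp2* and *Irf2bpl*). No row matched the Mx symbols, which were not analysed here.

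Interferons are cytokines of antiviral defence. Type I interferons bind the receptor pair IFNAR1 and IFNAR2, interferon-gamma binds IFNGR1 and IFNGR2, and the JAK kinases on these receptors phosphorylate STAT proteins. A complex that holds STAT2 and IRF9 binds the interferon-stimulated response element (ISRE) in promoters, STAT dimers bind the gamma-activated site (GAS), and the genes switched on make effectors that bind viral RNA (IFIT), activate the nuclease RNase L (OAS), hinder viral entry (IFITM) or attack the vacuoles of pathogens (GBP). In the testis, this system has been described mostly in Sertoli, Leydig and peritubular cells, and less in germ cells.

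The series held 12 libraries, 5 of control and 7 of cryptorchid spermatogonia, each of GFRa1+/KIT- cells, labelled as wild type for genotype and sorted from the testes of adult males that carry GFRa1-EGFP, a reporter of the GDNF receptor gene *Gfra1*. Surgery made the left testis abdominal and did not move the right one, which gave the control cells, and cells were taken on day 10 after surgery. The labels do not tie libraries to single mice, so *P*-values measure only the spread between these libraries, which may be technical. The control testes were digested at a lower temperature than the cryptorchid testes, so that the effect of digestion and of surgery cannot be told apart. Each library was made by Smart-seq2, full-length cDNA amplified by PCR without molecular identifiers, from RNA of about 200 cells. The values are log2 RPM, the reads of a gene scaled to the size of its library and put on a log2 scale, with a single lowest value of -1.92 for all libraries.

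Between 4511730 and 24345372 reads fell on genes in control libraries and between 3306771 and 20027904 in cryptorchid libraries. Replicates 1 to 3 of both groups differed from replicates 4 and above in their read numbers (3 control and 3 cryptorchid libraries against 2 and 4). Even numbers made up 53.2 to 60.8% of the recovered read numbers from 1 to 20 in the first set and 48.2 to 50.5% in the second. They are called technical sets here, although they also differed in marker sums of other cells. Differences within these sets are given beside the pooled ones for the called members and for some other genes. All 12 markers of undifferentiated spermatogonia that were checked had reads, and their summed level was 1302 to 1921 RPM in control and 1460 to 2259 RPM in cryptorchid libraries. The list of 6 spermatid markers stood at 483.5 to 2594 RPM in control and 11.6 to 1668 RPM in cryptorchid libraries, and *Prm1*, *Prm2* and *Tssk6* were lower in cryptorchid cells. Of 6 markers of differentiating spermatogonia, *Stra8* was called higher (5.97 ± 0.446 to 7.06 ± 0.671 log2 RPM, limma *P*=0.0035, adjusted *P*=0.261, exact rank sum *P*=0.048). The others were not called: *Kit* and *Ccnd2* differed by 0.45 and 0.37 log2 units, and *Dmrtb1*, *Sohlh1* and *Sohlh2* by -0.76, -0.65 and -0.31. The median difference of this list was 0.03. Leukocyte markers were mixed. Of 31 genes in the lists for macrophages, lymphocytes, dendritic cells and all leukocytes, 8 had reads in all 12 libraries (*Csf1r*, *Cd68*, *Mrc1*, *Cx3cr1*, *Flt3*, *Zbtb46*, *Coro1a* and *Cd52*) and 15 had reads in 6 or fewer. *Coro1a* had 3107 reads over all libraries. *Cd52* stood at 4.87 ± 0.472 log2 RPM in control and 3.95 ± 0.863 in cryptorchid cells. Its difference of -0.92 was short of 2-fold (limma *P*=0.0435, adjusted *P*=0.527, exact rank sum *P*=0.0303). *Zbtb46* stood at 4.35 ± 0.587 and 4.80 ± 0.241 and *Csf1r* at 2.59 ± 1.37 and 2.95 ± 1.24, and none of these genes was called. *Ptprc*, the pan-leukocyte antigen CD45, had reads in 7 of 12 libraries, *Cd8a* in 1, *C1qa* in 3 and *Nkg7* in 0, which allows up to 3 reads per library. The sum of the 10 macrophage markers (238.4 to 429.6 RPM in control and 189.0 to 434.6 RPM in cryptorchid libraries) was nearly all *Cx3cr1*, and *Mrc1*, a mannose receptor of macrophages and endothelium, rose from 1.07 ± 0.785 to 3.09 ± 0.643 log2 RPM (limma *P*=0.0019, adjusted *P*=0.219, exact rank sum *P*=0.00505). Of the endothelial markers, *Cdh5* rose from 0.66 ± 1.46 to 2.67 ± 0.574 log2 RPM (limma *P*=0.0071, adjusted *P*=0.344, exact rank sum *P*=0.0732). The other tested endothelial markers were not called and differed by -0.25 (*Egfl7*) to 0.39 (*Pecam1*) log2 units. Tested macrophage markers other than *Mrc1* were not called either and differed by -0.58 (*C1qb*) to 1.22 (*Adgre1*), with *Cd68* at -0.37. Sertoli cell markers summed to 42.9 to 231.4 RPM in control and 39.6 to 252.3 RPM in cryptorchid libraries. Leydig cell markers summed to 8.64 to 15.5 and 6.18 to 47.8 RPM, and peritubular myoid markers to 1.46 to 16.5 and 0.71 to 14.5 RPM. Spermatocyte markers summed to 473.1 to 1881 and 385.9 to 1984 RPM. No marker of these last lists was called. Sertoli cell sums were 39.6 to 79.7 RPM in replicates 1 to 3 of both groups and 126.7 to 252.3 RPM in replicates 4 and above. Spermatocyte sums were 385.9 to 727.0 RPM and 646.6 to 1984 RPM in these sets. The part of all these cell types in the results on members was not tested. The 11 lymphocyte markers summed to 4.10 to 8.42 RPM in control and 2.78 to 18.6 RPM in cryptorchid libraries. In RNA of sorted bulk cells, fewer cells of a type and less RNA per cell cannot be told apart.

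The promoters of the members differed in the motifs that the pathway acts through. Windows of 300 bases, from 250 before to 50 after each gene start, were found in RefSeq (GRCm38.p6) for 62 of the 74 members. The ISRE letters (GAAA, any 2 bases, GAAA) were present on either strand for 45.2% of these members and 3.99% of all 27025 genes in the RefSeq table. The GAS letters (TTC, any 3 bases, GAA), which read the same on both strands, were present for 24.2% and 9.55%. Among the effector families, 58.1% of 43 genes held an ISRE match, against 15.8% of the 19 receptors, STATs, IRFs and IRF2-binding proteins. A match is a description of letters and not a measured site. The stretches below are those of called members with a match before the start and of regulators and classical interferon-stimulated genes whose levels follow, each with its gene's strand and with the matches in capitals.
Irf2 (chr8:46739495-46739539, + strand): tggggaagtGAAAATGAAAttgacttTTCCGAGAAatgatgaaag
Gbp3 (chr3:142559989-142560024, + strand): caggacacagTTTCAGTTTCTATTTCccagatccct
Stat4 (chr1:52008133-52008162, + strand): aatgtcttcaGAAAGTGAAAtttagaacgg
Stat2 (chr10:128270266-128270295, + strand): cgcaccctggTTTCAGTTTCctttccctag
Irf1 (chr11:53769914-53769942, + strand): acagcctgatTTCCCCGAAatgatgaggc
Irf8 (chr8:120736177-120736223, + strand): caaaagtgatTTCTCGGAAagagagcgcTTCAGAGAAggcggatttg
Isg15 (chr4:156200865-156200906, - strand): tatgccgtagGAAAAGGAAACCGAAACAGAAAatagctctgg
Oas1a (chr5:120907605-120907633, - strand): aagctcagacTTCAAAGAAcctggtcaga
Oas1a (chr5:120907526-120907555, - strand): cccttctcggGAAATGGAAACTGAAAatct
Ifit1 (chr19:34640775-34640823, + strand): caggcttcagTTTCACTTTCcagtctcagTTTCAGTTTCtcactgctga
Ifit3 (chr19:34583363-34583426, + strand): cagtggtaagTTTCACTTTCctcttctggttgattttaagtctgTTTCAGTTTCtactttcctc

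In *Irf2*, an ISRE match began 241 bases and a GAS match 224 bases before the RefSeq start, in an exon of *Gm16675*. The 2 ISRE matches of *Gbp3* overlapped each other and began 45 and 39 bases before its start. The ISRE match of *Stat4* lay 97 bases before a RefSeq start, within an intron of a longer transcript of *Stat4* in GENCODE. *Isg15* held 3 overlapping ISRE matches, and *Irf1* and *Irf8* held GAS matches and no ISRE match, those of *Irf8* within the gene *Gm20388*. *Oas1a* held a GAS match 98 bases before its start and ISRE matches nearer to it. The remaining called gene, *Ifi35*, had no ISRE match in its window and a GAS match that began 7 bases after its start.

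Of the 74 members, 51 passed the low-expression limit (log2 of the mean RPM above -1) and were tested. Among these, *Irf2* and *Gbp3* were higher and *Ifi35* and *Stat4* were lower in cryptorchid spermatogonia at 2-fold and an unadjusted limma *P*-value under 0.05, and 47 were not called. The share called higher was 3.92% of the tested members against 3.18% of all 16932 genes tested, and the share called lower was 3.92% against 2.45%, so that both stood near the background. Of all genes called, 56.5% were higher, and this share was 45.3% after quantile normalization and 46.5% after median centring. An unadjusted *P*-value under 0.05 was reached by 4 members against 9.16% of all genes. By limma with Benjamini-Hochberg adjustment over all genes, 0 members and 0.0118% of all genes (2 genes) passed 0.05. The groups did not overlap for *Irf2*, which was higher, against 0.555% of all genes, and for 0 lower members, against 0.283%. The median difference was -0.09 log2 units over the tested members and 0.09 over all genes tested, and 24 members had a higher and 27 a lower mean, whereas 56% of all genes had a higher mean in cryptorchid cells. The sign of the difference was the same in both technical sets for 30 of the 51.

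**Figure D1:**
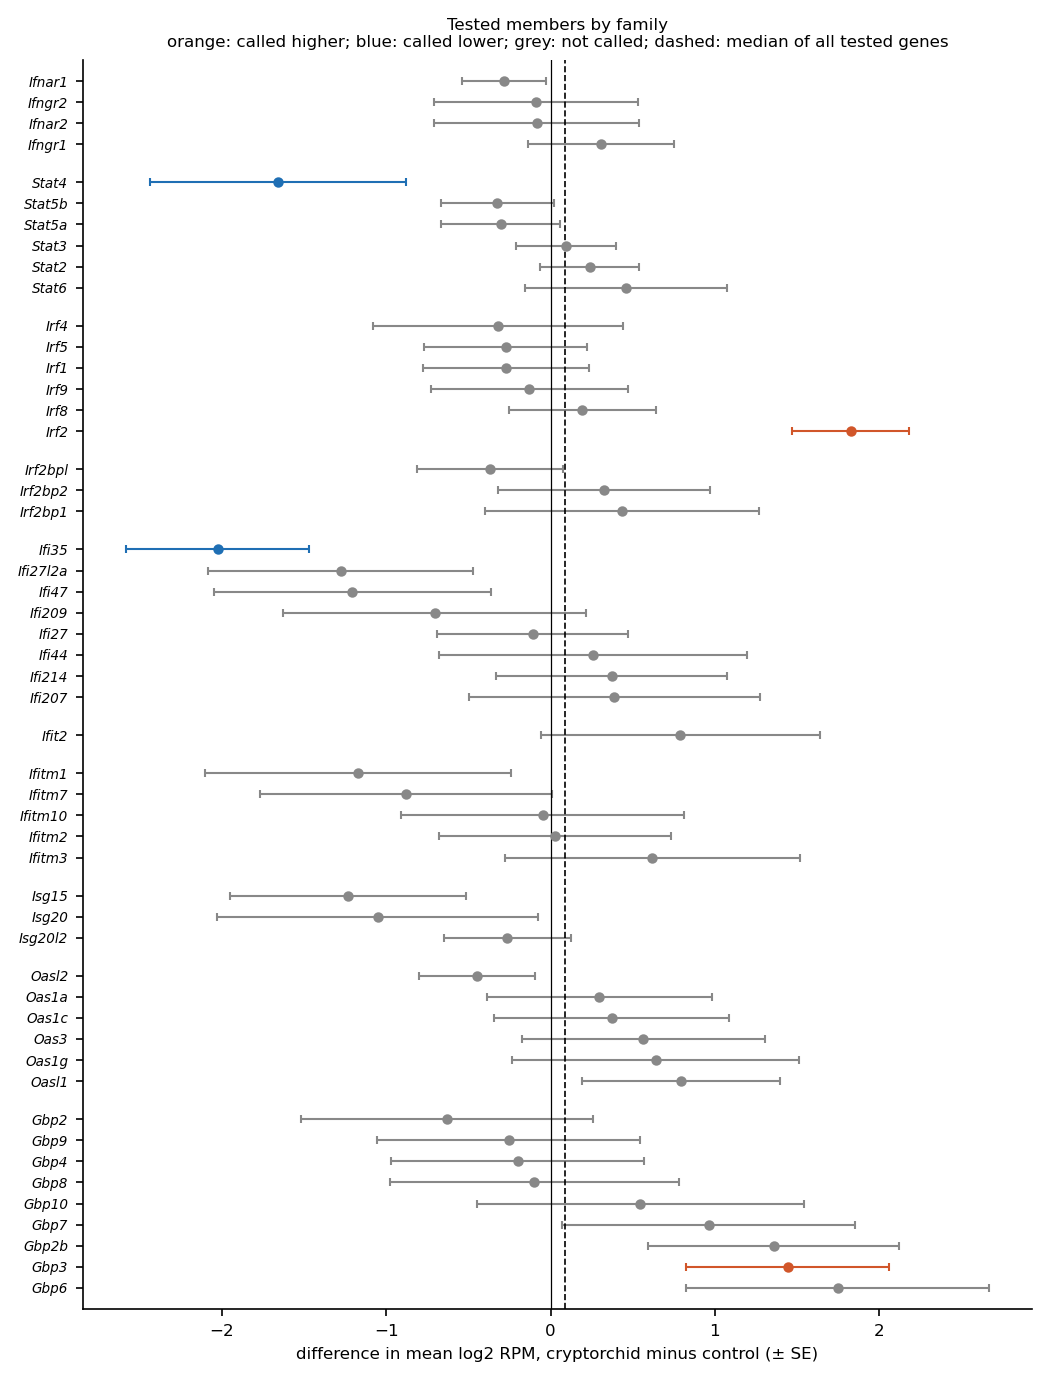
Difference in mean log2 RPM, cryptorchid (7 libraries) minus control (5 libraries), with its SE for the 51 tested members, grouped by family. The members lie on both sides of the dashed median of all tested genes (0.09), and the called ones are *Irf2* and *Gbp3* (higher) and *Ifi35* and *Stat4* (lower).

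No interferon gene was expressed at a level that could be tested. Of 21 genes for interferons alpha, beta, epsilon, kappa, zeta, gamma and lambda, 0 passed the limit and 17 had no read in any library, *Ifnb1* and *Ifng* among them, which allows up to 3 reads per library. The receptors were present in all 12 libraries. *Ifnar1*, a chain of the type I receptor, had the highest level per kb of exon among them, 4.15 ± 0.202 log2 RPM per kb in control (SD, *n*=5) and 3.87 ± 0.456 in cryptorchid cells (SD, *n*=7). It was followed by *Ifngr1* (3.13 ± 1.09 and 3.44 ± 0.637), *Ifngr2* (2.24 ± 1.04 and 2.15 ± 1.38) and *Ifnar2* (1.29 ± 1.36 and 1.20 ± 0.894). The SDs of *Ifngr1*, *Ifngr2* and *Ifnar2* overlapped with those of their neighbours in this order.

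None of the 4 receptors was called. The difference in log2 RPM was -0.28 ± 0.258 (SE) for *Ifnar1*, -0.09 ± 0.624 for *Ifnar2*, 0.31 ± 0.445 for *Ifngr1* and -0.09 ± 0.620 for *Ifngr2*, and the smallest unadjusted *P*-value was 0.285. *Ifnar2* shares exons with the read-through gene *Gm21970*, and its values are uncertain. Of 5 genes for the JAK kinases and the receptor for interferon lambda, *Ifnlr1*, the lambda-specific chain, was called higher (0.09 ± 1.46 to 1.85 ± 0.983 log2 RPM, limma *P*=0.0279, adjusted *P*=0.467, exact rank sum *P*=0.0732). *Jak1* (8.32 and 8.46 log2 RPM), *Jak2* (4.93 and 4.94) and *Tyk2* (5.82 and 5.62) were not called.

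**Figure D2:**
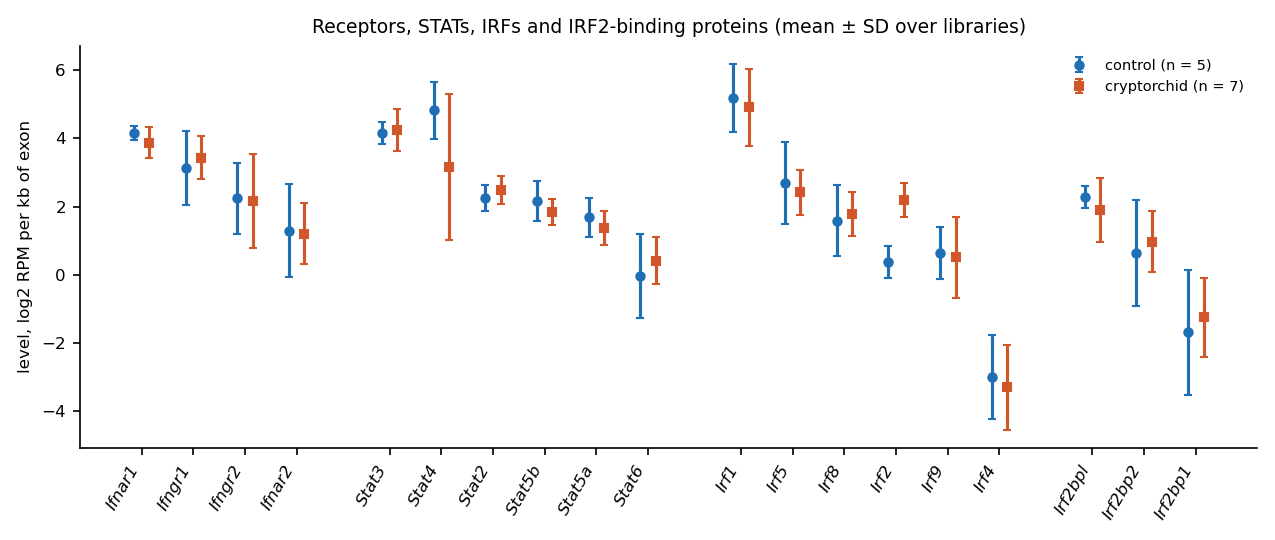
Level in log2 RPM per kb of exon (mean ± SD) of the receptors, STATs, IRFs and IRF2-binding proteins in 5 control (circles) and 7 cryptorchid (squares) libraries, in the order of their mean level within each family. *Irf1* was highest among the IRFs, and *Irf2* is the gene whose libraries did not overlap between the groups.

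Of the 6 STATs, *Stat4* (chr1:51987148-52107189, + strand, GENCODE vM21), which carries interleukin-12 signals in lymphocytes, was called lower and 0 were called higher. *Stat4* shares exons on its own strand with the read-through gene *Gm28177*, which holds 18.0% of its 100-base words, so that reads there cannot be assigned to a single gene. The control libraries had 7.12, 5.41, 7.35, 6.57 and 7.44 log2 RPM. The cryptorchid libraries spread from 1.61 to 7.54, with a median of 5.71, so that the groups overlapped. The mean fell by 1.66 ± 0.780 log2 units (SE), from 6.78 ± 0.836 to 5.12 ± 2.13 (SD). The limma *P*-value was 0.0474 (adjusted *P*=0.537), and the exact two-sided rank sum test gave *P*=0.202. The difference was -2.64 in replicates 1 to 3 and -1.03 in replicates 4 and above, and without cryptorchid replicate 2, the lowest, it was -1.07 with a limma *P*-value of 0.118. Without any single library the difference lay between -2.06 and -1.07, and the call was also lost without control replicate 1, 3, 4 or 5 or cryptorchid replicate 1 or 5.

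Spermatid marker sums are given beside these levels of *Stat4*. The 3 cryptorchid libraries with the lowest *Stat4* (replicate 2 at 1.61, replicate 5 at 3.59 and replicate 1 at 4.02 log2 RPM) had spermatid sums of 11.6, 93.1 and 74.1 RPM, and that with the highest (replicate 6 at 7.54) had 1668 RPM. These were the 3 lowest sums and the highest sum of the cryptorchid libraries. The part of these cells in the difference was not tested.

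The other STATs were present in all libraries and were not called. *Stat3*, which carries signals of the interleukin-6 family, was the most abundant by RPM at 7.41 ± 0.311 log2 RPM in control and 7.50 ± 0.623 in cryptorchid cells, above 94.4% of all genes tested. *Stat2*, which acts in the type I response, differed by 0.24 ± 0.301 (SE), from 4.82 ± 0.392 to 5.06 ± 0.415 log2 RPM. *Stat5a* and *Stat5b*, which act downstream of prolactin and growth hormone, differed by -0.30 ± 0.362 and -0.32 ± 0.343, and *Stat6*, which acts downstream of interleukin-4, by 0.46 ± 0.613. The exons of *Stat3* and *Stat5a* overlap on opposite strands, as do those of *Stat6* and *Nab2*, and the counting strand is not stated, so these values are uncertain. Per kb of exon, *Stat3* and *Stat4* led in control cells (4.16 ± 0.311 and 4.83 ± 0.836 log2 RPM per kb), and stood at 4.25 ± 0.623 and 3.17 ± 2.13 in cryptorchid cells.

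**Figure D3:**
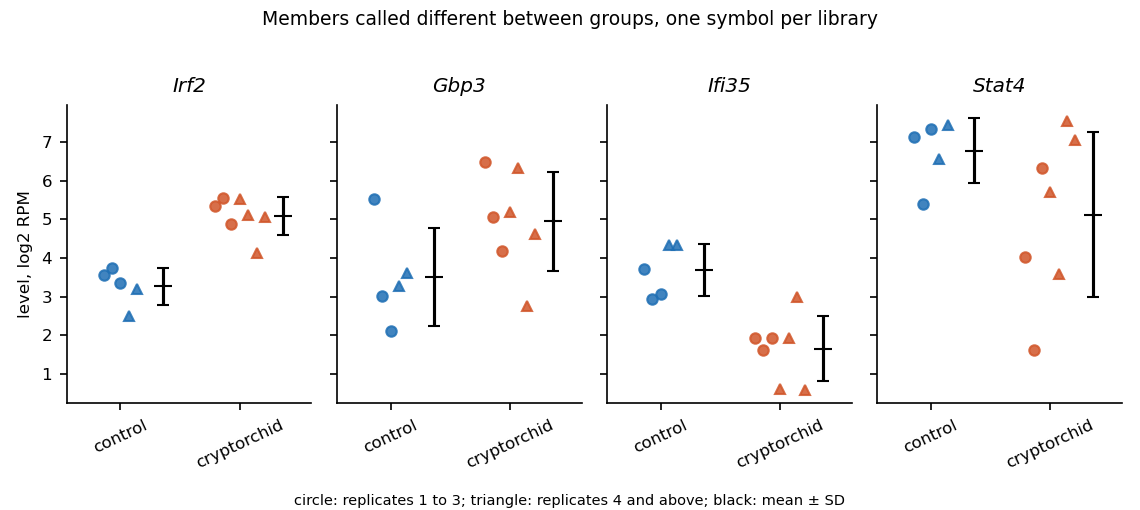
Level in log2 RPM of the 4 called members in each of the 5 control and 7 cryptorchid libraries, with mean ± SD in black. For *Irf2* every cryptorchid library lies above every control library, whereas the groups overlap for *Gbp3*, *Ifi35* and *Stat4*.

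Of the 6 IRFs, *Irf2* was called higher and 0 were called lower. IRF2 binds the same promoter elements as IRF1 and is known to restrain the type I response. The control libraries had 3.55, 3.74, 3.36, 2.50 and 3.18 log2 RPM. The cryptorchid libraries ranged from 4.12 to 5.56, with a median of 5.12, all above the control libraries. In reads, this was 31 to 385 per control library and 79 to 915 per cryptorchid library. The mean rose by 1.83 ± 0.354 log2 units (SE, 3.54-fold), from 3.27 ± 0.479 to 5.09 ± 0.498 (SD, *n*=5 and 7). The unadjusted limma *P*-value was 6.34e-05 and the adjusted one 0.0976, and the exact rank sum test gave *P*=0.00253, the smallest this design can give (adjusted *P*=0.301). The difference was 1.72 in replicates 1 to 3 and 2.12 in replicates 4 and above. *Irf2* (chr8:46739732-46847458, + strand) shares no exonic base with another gene in GENCODE vM21.

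*Irf1*, the activator that competes with IRF2 for the same elements, was the most abundant IRF, above 92.8% of all genes tested. Its control libraries had 8.22, 7.50, 5.52, 7.41 and 7.22 log2 RPM, and its cryptorchid libraries ranged from 5.49 to 8.67 with a median of 6.74. These ranges overlapped widely, and the difference was -0.27 ± 0.506 (SE, limma *P*=0.596, exact rank sum *P*=0.530). Exons of *Irf1* overlap *Gm17334* on the other strand. The difference of *Irf1* was 0.45 in replicates 1 to 3 and -0.88 in replicates 4 and above. On the scale of log2 RPM per kb of exon, the level of *Irf1* was 5.19 ± 0.999 in control and 4.91 ± 1.13 in cryptorchid cells, and that of *Irf2* was 0.38 ± 0.479 and 2.20 ± 0.498.

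*Irf8* and *Irf4*, known from myeloid and lymphoid cells, *Irf5*, which acts downstream of Toll-like receptors, and *Irf9*, the DNA-binding partner of STAT2, were not called. *Irf8* had reads in all libraries (4.41 ± 1.03 and 4.60 ± 0.658 log2 RPM), and its difference was 0.19 ± 0.449. *Irf9* differed by -0.13 ± 0.60, *Irf5* by -0.27 ± 0.497 and *Irf4*, which had reads in 6 libraries, by -0.32 ± 0.761. *Irf5* overlaps *Tnpo3* on the other strand and *Irf9* shares exons with *Rnf31*, which makes both uncertain. The IRF2-binding proteins, corepressors named for that contact, differed by -0.37 ± 0.444 (*Irf2bpl*), 0.32 ± 0.647 (*Irf2bp2*) and 0.44 ± 0.834 (*Irf2bp1*).

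The effector families held 55 of the 74 members, and 32 of them were tested. Reads in all 12 libraries were found for few of them, as the plot of libraries with reads shows. The 23 members that did not pass the limit were all effectors, had at most 83 reads in all 12 libraries together and had reads in at most 6 libraries, and 13 of them had more reads in cryptorchid replicate 1 than in any other library. That library was the deepest of its group, with 20027904 reads on genes, but control replicates 1 and 2 were deeper (22901523 and 24345372). Of the 74 members, 70 had reads in cryptorchid replicate 1, and 55 and 53 in control replicates 1 and 2. The cause was not tested. An ISRE match was in the window of 66.7% of the 18 untested members with a window and of 36.4% of the 44 tested ones. The tested ones included the 19 receptors, STATs, IRFs and IRF2-binding proteins, of which 15.8% held a match. These shares therefore do not compare effectors alone, and over all 43 effectors with a window the share was 58.1%.

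**Figure D4:**
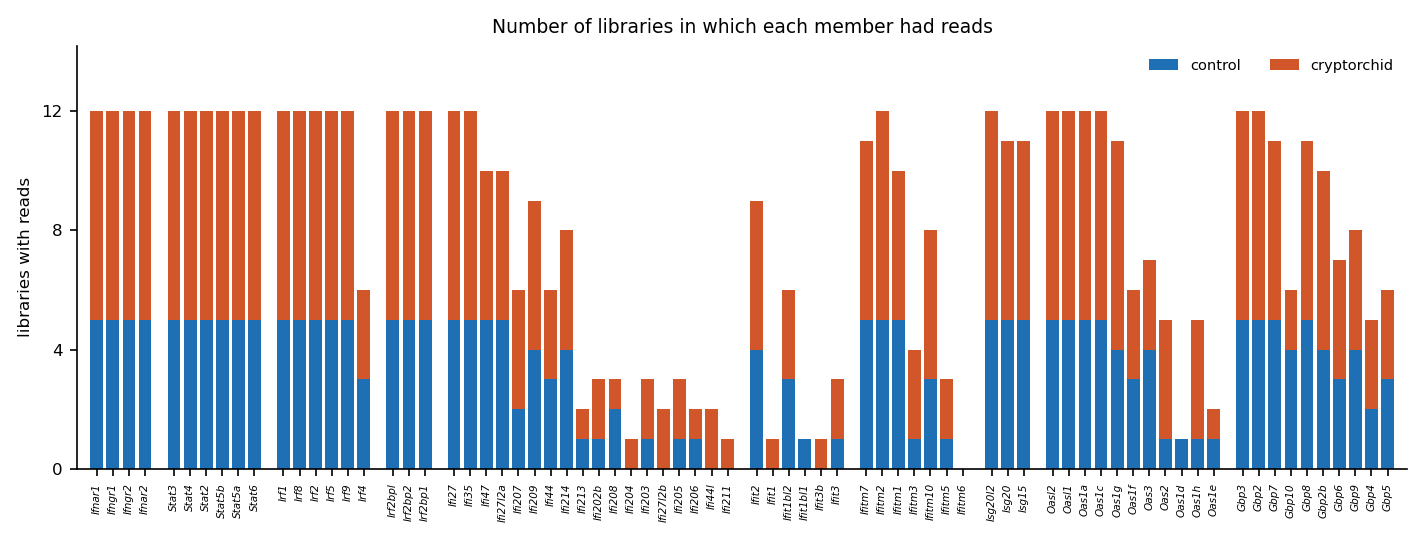
Number of libraries in which each of the 74 members had reads, stacked for control (of 5) and cryptorchid (of 7) libraries and grouped by family. Every receptor and STAT and all IRFs but *Irf4* had reads in all 12 libraries, while most Ifi and Ifit genes had reads in few.

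Of the Ifit family, whose proteins bind viral RNA, 1 of 6 members was tested. *Ifit2* had 95 reads in 9 libraries and differed by 0.79 ± 0.851 log2 units (SE, limma *P*=0.366, exact rank sum *P*=0.527). *Ifit1*, *Ifit3* and *Ifit3b*, named after their values were seen, had 36 reads in 1 library, 13 reads in 3 libraries and 15 reads in 1 library, although the windows of all 3 held a pair of ISRE matches each. *Ifit3* and *Ifit3b* are near-identical over part of their length, and 31.7% of the 100-base words of *Ifit3* are also in *Ifit3b*.

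Of the 18 Ifi genes, 8 were tested, *Ifi35* was called lower and 0 were called higher. IFI35 is an interferon-induced leucine-zipper protein. Its control libraries had 3.70, 2.93, 3.07, 4.35 and 4.33 log2 RPM. The cryptorchid libraries ranged from 0.58 to 2.98 with a median of 1.93, and 6 of the 7 lay below every control library, while replicate 6 (2.98) lay above control replicate 2. In reads, this was 86 to 317 per control library and 7 to 85 per cryptorchid library. The mean fell by 2.03 ± 0.558 log2 units (SE), from 3.68 ± 0.672 to 1.65 ± 0.843 (SD, *n*=5 and 7). The unadjusted limma *P*-value was 0.00186 and the adjusted one 0.219, and the exact rank sum test gave *P*=0.00505 (adjusted *P*=0.343). The difference was -1.41 in replicates 1 to 3, where it was not called alone, and -2.82 in replicates 4 and above. *Ifi35* (chr11:101448407-101458698, + strand) overlaps *Gm11626* on the other strand. Cryptorchid replicate 6, the highest for *Ifi35*, had a spermatid sum of 1668 RPM, the highest of its group. The lowest libraries for *Ifi35*, replicates 7 (0.58) and 4 (0.60), had sums of 371.6 and 590.3 RPM, while replicates 1, 2 and 5 (1.93, 1.61 and 1.93) had lower sums of 74.1, 11.6 and 93.1 RPM. The part of spermatid RNA in the difference was not tested.

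*Ifi27*, a mitochondrial protein gene, was the most abundant of the Ifi genes and was present at 4.06 ± 1.37 log2 RPM in control and 3.95 ± 0.949 in cryptorchid cells, a difference of -0.11 ± 0.581. The other 6 tested Ifi genes differed by -1.28 to 0.39 log2 units. Of the p200 genes on chromosome 1, which encode sensors of foreign DNA and relatives, only *Ifi214*, *Ifi209* and *Ifi207* passed the limit, and none was called. Several of them share sequence, for example 56.9% of the 100-base words of *Ifi211* are in another gene, and their reads could be split between copies.

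Of the 3 Isg genes, 0 were called and all 3 had a lower mean in cryptorchid cells. *Isg15*, a ubiquitin-like modifier and a classical marker of type I signalling, had 101 reads in all. The control libraries had 0.20, -0.09, -1.92, 2.13 and -1.17 log2 RPM, and the cryptorchid libraries ranged from -1.92 to -0.19 with a median of -1.48. The difference was -1.23 ± 0.718 (SE, limma *P*=0.103, exact rank sum *P*=0.077), within the spread of the control libraries. The exonuclease gene *Isg20* differed by -1.05 ± 0.977, and *Isg20l2*, a ribosomal RNA processing gene and the most abundant of the 3, by -0.26 ± 0.385. *Isg20l2* overlaps *Rrnad1* on the other strand.

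Of the 11 Oas genes, 6 were tested, 0 were called and 5 had a higher mean in cryptorchid cells. *Oasl2*, the most abundant, stood at 5.90 ± 0.569 log2 RPM in control and 5.45 ± 0.687 in cryptorchid cells, a difference of -0.45 ± 0.352 (SE, limma *P*=0.218, exact rank sum *P*=0.202). The others differed by 0.30 to 0.80 log2 units, with SEs of 0.602 to 0.871. *Oas1a* and *Oas1g* are near-identical copies, with 40.9% of the 100-base words of *Oas1a* in *Oas1g*, and their reads cannot be assigned with certainty. Of the 7 Ifitm genes, 5 were tested and 0 were called. *Ifitm7*, the most abundant, differed by -0.88 ± 0.890, and the others by -1.17 to 0.62. *Ifitm7* overlaps *2900011O08Rik* on the other strand. *Ifitm6* had no read, which allows up to 3 reads per library.

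Of the 10 Gbp genes, guanylate-binding GTPases induced by interferon-gamma, 9 were tested, *Gbp3* was called higher and 0 were called lower. The control libraries of *Gbp3* had 5.53, 3.01, 2.11, 3.27 and 3.61 log2 RPM. The cryptorchid libraries ranged from 2.77 to 6.48 with a median of 5.07, and control replicate 1 lay above 5 of them. The mean rose by 1.44 ± 0.618 log2 units (SE, 2.72-fold), from 3.50 ± 1.26 to 4.95 ± 1.28 (SD). The limma *P*-value was 0.0311 (adjusted *P*=0.480) and the exact rank sum test gave *P*=0.149. The difference was 1.70 in replicates 1 to 3 and 1.29 in replicates 4 and above. Without control replicate 3 it was 1.09, with a limma *P*-value of 0.0992. Without any single library it lay between 1.09 and 1.95, and the call was also lost without control replicate 2 or 4 or cryptorchid replicate 1, 2 or 5.

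Of the other tested Gbp genes, *Gbp2* had 4096 reads over all libraries and *Gbp7* 1131, and the rest 113 to 216. *Gbp2* was next to *Gbp3* in level per kb of exon (3.10 and 3.24 log2 RPM per kb of the mean RPM) and differed by -0.63 ± 0.889. *Gbp7*, *Gbp2b* and *Gbp6*, named after their values were seen, differed by 0.96 ± 0.892, 1.36 ± 0.764 and 1.75 ± 0.920 and were not called. All 5 control libraries of *Gbp6* and cryptorchid replicates 2, 5, 6 and 7 were at the lowest value. Its difference depends on that value and on cryptorchid replicates 1, 3 and 4 (70, 68 and 16 reads), through which it passed the low-expression limit. *Gbp2b* had 31, 1, 0, 2 and 3 reads in control replicates 1 to 5 and 0 to 90 reads per cryptorchid library. Control replicates 2 and 3 and cryptorchid replicate 7 of *Gbp2b* were at the lowest value, so its difference depends in part on that value. The differences of *Gbp7*, *Gbp2b* and *Gbp6* were 1.86, 2.25 and 2.84 in replicates 1 to 3 and 0.76, 0.65 and 0.93 in replicates 4 and above. *Gbp6* and *Gbp10* share 59.0% and 63.6% of their 100-base words with *Gm43302*, and *Gbp4*, *Gbp8* and *Gbp9* share exons, so that these values are uncertain.

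Of 7 negative regulators (*Socs1*, *Socs3*, *Usp18*, *Pias1*, *Ptpn2*, *Ptpn6* and *Ptpn11*), 7 were tested and 0 were called. Of 31 further genes induced by type I interferon, 28 were tested, 0 were called higher and 3 were called lower, or 10.7% of those tested beside 2.45% of all genes. These were *Zbp1*, a sensor of Z-form nucleic acids (0.34 ± 1.22 to -1.63 ± 0.769 log2 RPM, limma *P*=0.0099, exact rank sum *P*=0.0126), *Cmpk2*, a mitochondrial nucleotide kinase (1.42 ± 0.528 to -0.47 ± 1.82, *P*=0.0356, exact *P*=0.0859), and *Trim21*, an antibody receptor of the cytosol (4.06 ± 0.833 to 2.84 ± 1.07, *P*=0.0434, exact *P*=0.0303). Their adjusted limma *P*-values were 0.372, 0.498 and 0.53. *Zbp1* had 6 to 26 reads per control library and 0 to 5 per cryptorchid library. Its cryptorchid values ran from -1.92, the lowest value, to 0.11, so it passed the low-expression limit through the control libraries. The difference of *Zbp1* depends on that lowest value. In replicates 1 to 3 and in replicates 4 and above, differences were -1.42 and -3.03 for *Zbp1*, -3.12 and -1.11 for *Cmpk2* and -1.89 and -0.41 for *Trim21*. The median difference of these 28 genes was -0.03 log2 units, beside 0.09 over all genes tested. Of 17 genes induced by interferon-gamma that were in the table, 11 were tested and 0 were called, with a median of -0.39.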

How the data were processed

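RNA of GFRa1+/KIT- spermatogonia was measured in 5 control and 7 cryptorchid libraries, grouped by their sample titles. The authors trimmed reads with Trim Galore 0.6.6, mapped them to mm10 with HISAT2 2.1.0 and used SeqMonk to count reads of protein-coding genes. The deposited values are log2 RPM per library. A gene without reads was deposited at the value of 0.9 reads, which differs between libraries, so values were raised to a common floor of -1.92. Reads per value were recovered from the steps of the values. Replicates differed by 13.5 to 264 times the sampling noise (31 pairs), and read numbers cover counting error only.

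The 16932 genes whose mean RPM exceeded -1 on the log2 scale were fitted with limma 3.58.1 in R 4.3.3 (eBayes with trend, two-sided, unpaired, Benjamini-Hochberg over all genes), and called at 2-fold and an unadjusted *P*-value under 0.05. Exact two-sided rank sum tests ran in Python 3.11.15 with scipy 1.17.1. Positions are from GENCODE vM21 (GRCm38), and exon lengths are those of merged exons. Of the matched genes, 2 are not reported here and enter no count of members. The members and lists were chosen with earlier results of these data known. Members named in full are the tested receptors, STATs and IRFs, and the most abundant and all called genes of each effector family. Of the pathway lists, *Socs1* is in 2. The alternatives were no common floor, log2(RPM + 1) and log2(RPM + 0.1), no filter and a filter at 2, median centring, quantile normalization, array weights, the replicate number as a block, a term for the technical set, each set alone, voom on recovered reads, the exact rank sum test in place of limma, the members without the IRF2-binding proteins and *Isg20l2*, and each library left out. The counting strand is not given in the sources used here.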

Additional observations from a re-analysis of the deposited data

Results flagged for a closer look

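Among 46 groups of libraries of the 23 named members, 3 held a library whose gap to the nearest other library was larger than Dixon's 95% limit, and chance alone flags about 1 in 20 groups. *Oasl2* stood at 6.85 log2 RPM in cryptorchid replicate 1, with the next library at 5.70. *Irf5* stood at 2.14 log2 RPM in control replicate 3, with the next library at 4.46. *Ifngr2* stood at 1.32 log2 RPM in cryptorchid replicate 3, with the next library at 3.80. The IRF2-binding proteins were not among these 23 members. *Irf2bp2* stood at 0.23 log2 RPM in control replicate 3, with the next control library at 3.45. *Irf2bpl* stood at 1.95 in cryptorchid replicate 7, with the next cryptorchid library at 3.81. Control replicate 3 had the lowest median over the tested members of all libraries, 1.11 log2 RPM.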

How the results depend on the processing

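*Irf2* stayed called in all 26 other settings, *Ifi35* in 25 (not in technical set 1 alone), *Gbp3* in 15 and *Stat4* in 13, and no call turned direction. The count of members called higher (2) was 5 with the replicate block (*Irf2*, *Gbp3*, *Gbp7*, *Gbp2b* and *Gbp6*; 753 of all genes against 538 without it), 4 in technical set 1 alone (290 of all genes), and 1, *Irf2*, in technical set 2 alone and with no filter on low values. It ranged from 1 to 4 without 1 library, with 4 without cryptorchid replicate 6 or 7 and 1, *Irf2*, without control replicate 2, 3 or 4 or cryptorchid replicate 1. The count called lower (2) was 1 with the filter at 2, with no common floor, with no filter on low values and in technical set 1 or 2 alone, ranged from 1 to 2 without 1 library, and was 4 with the replicate block (*Stat4*, *Isg20*, *Ifi35* and *Ifitm7*; 914 of all genes against 415). Leaving out control replicate 1, 4 or 5 or cryptorchid replicate 2 or 5 gave 1, *Ifi35*. The replicate number was not shown to pair libraries: the correlation of same-numbered deviations was 0.44, 0.43, 0.47, 0.26 and 0.04, 4 of 5 numbers were closest to their own number as a hint from the data, and the block leaves cryptorchid replicates 6 and 7 without a partner. Adjusted limma *P*-values under 0.05 were reached by *Irf2* and *Ifi35* with array weights (400 of all genes), by *Stat4*, *Gbp3*, *Irf2* and *Ifi35* with the replicate block (982), and by *Irf2* with a term for the technical set (55) or without cryptorchid replicate 6 (10), against 2 of all genes in the reported fit. Of all genes called, 56.5% were higher, and 45.2% with the replicate block, 45.7% with a term for the technical set and 67.4% without control replicate 5. The median difference of the members was -0.09 and ranged from -0.34 (technical set 2 alone) to 0.32 (technical set 1 alone), on both sides of 0. The cause of these changes was not tested. Members with few reads, such as *Isg15*, limit what a difference can show.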

Other observations

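*Isg20* and *Ifitm7*, named after their values were seen, were not called and spread widely among cryptorchid libraries. *Isg20* stood at -1.92 in replicate 5 and 0.43 in replicate 2, and at 4.80 and 5.12 log2 RPM in replicates 6 and 7, against 2.30 to 4.59 in control. *Ifitm7* stood at -1.92 in replicate 2 and -0.57 in replicate 1, and at 2.14 to 3.52 log2 RPM in replicates 4 to 7, against 1.18 to 3.41 in control. The spermatid marker sums of cryptorchid replicates 1 to 7 were 74.1, 11.6, 280.4, 590.3, 93.1, 1668 and 371.6 RPM, and their part in these values was not tested.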
